A study of Mus musculus with 4 samples.

Results

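The transcripts examined here encode enzymes that turn cholesterol into bile acids in the liver. The 10 genes were chosen by name, as the members of this pathway given for the work, out of 55487 gene identifiers in the count tables, and all 10 passed the filter on low counts. Livers came from 4 females of the FVB strain, 11 weeks old and on standard chow, with 2 in each group. One group is wild type (WT). The other, labelled PA, is described as hypomorphic, Pcca-/- with an A138T allele, where Pcca codes for the alpha subunit of propionyl-CoA carboxylase. The labels do not say what drives that allele or in which cells. The comparison addressed is how the transcripts of liver differ between these genotypes, and within it how the classic and the alternative route of bile acid synthesis compare.

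Bile acids are made in hepatocytes by a chain of hydroxylations, ring changes, side-chain shortening and conjugation. The classic route opens with cholesterol 7-alpha-hydroxylase, Cyp7a1, its rate-limiting step, and uses the sterol 12-alpha-hydroxylase Cyp8b1 to make cholic acid. The alternative route opens with hydroxylation of the side chain by mitochondrial Cyp27a1, whose oxysterol products are 7-alpha-hydroxylated by Cyp7b1, while Cyp39a1 acts on the oxysterol that neurons export. Cyp27a1 also serves the side chain of the classic route. Both routes share the steroid dehydrogenase Hsd3b7, the steroid reductase Akr1d1, the racemase Amacr, the bile acid CoA ligase Slc27a5 and Baat, which joins bile acids to taurine or glycine. In mouse liver Cyp7b1 is known to be higher in males and Cyp39a1 higher in females, and Cyp7a1 and Cyp8b1 are known to vary with the time of day and with feeding.

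All 10 genes are annotated as protein-coding in GRCm38. The classic genes are Cyp7a1 (ENSMUSG00000028240, chr4:6265612-6275633, minus strand) and Cyp8b1 (ENSMUSG00000050445, chr9:121914356-121916305, minus strand). The alternative genes are Cyp27a1 (ENSMUSG00000026170, chr1:74713574-74737892, plus strand), Cyp7b1 (ENSMUSG00000039519, chr3:18071950-18243338, minus strand) and Cyp39a1 (ENSMUSG00000023963, chr17:43667425-43751431, plus strand). The shared genes are Hsd3b7 (ENSMUSG00000042289, chr7:127800604-127803802, plus strand), Akr1d1 (ENSMUSG00000038641, chr6:37530173-37568815, plus strand), Amacr (ENSMUSG00000022244, chr15:10981756-10996626, plus strand), Slc27a5 (ENSMUSG00000030382, chr7:12988346-12998192, minus strand) and Baat (ENSMUSG00000039653, chr4:49489422-49506557, minus strand).

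RefSeq promoter sequences on GRCm38.p6 were matched for 4 members, Cyp8b1, Cyp27a1, Hsd3b7 and Akr1d1. The entries of Cyp7a1, Cyp7b1, Cyp39a1, Amacr, Slc27a5 and Baat were missing. The 250 bases before the start of 3 of the 4 are shown 5′ to 3′ on the strand of the gene. Cyp8b1 (chr9:121916306-121916555, minus strand) and Cyp27a1 (chr1:74713285-74713534, plus strand) stand for one gene of each route, the one spread widely between the PA mice and the other level in every mouse. Akr1d1 (chr6:37529923-37530172, plus strand) is shown for its motif matches, which are in capitals.
Cyp8b1: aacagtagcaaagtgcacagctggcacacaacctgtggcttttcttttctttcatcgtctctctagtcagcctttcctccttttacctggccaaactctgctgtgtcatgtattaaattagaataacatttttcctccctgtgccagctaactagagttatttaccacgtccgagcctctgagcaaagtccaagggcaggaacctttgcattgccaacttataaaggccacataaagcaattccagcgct
Cyp27a1: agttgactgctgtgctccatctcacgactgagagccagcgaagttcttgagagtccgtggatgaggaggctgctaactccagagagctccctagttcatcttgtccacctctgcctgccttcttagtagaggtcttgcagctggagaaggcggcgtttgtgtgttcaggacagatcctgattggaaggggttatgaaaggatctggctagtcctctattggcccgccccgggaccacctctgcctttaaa
Akr1d1: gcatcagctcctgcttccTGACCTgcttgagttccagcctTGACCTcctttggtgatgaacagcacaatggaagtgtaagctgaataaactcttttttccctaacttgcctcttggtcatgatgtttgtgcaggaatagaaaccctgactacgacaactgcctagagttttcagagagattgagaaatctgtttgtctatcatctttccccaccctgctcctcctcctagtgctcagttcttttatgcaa

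Both strands of these windows were searched for 5 motifs. These were AGGTCA, a core element of nuclear receptor sites; CACGTG, an E-box; TTANGTAA, a D-box bound by clock output factors; TTCNNNGAA, a STAT site; and GTTAAT, part of an HNF1 site. Akr1d1 held AGGTCA on the reverse strand at 232 and 210 bases before its start, and 14.0% of all 32851 promoter windows held that motif at least once. Hsd3b7 held TTCNNNGAA starting 21 bases before its start, against 7.02% of all windows. No searched motif was found in the windows of Cyp8b1 and Cyp27a1, which says only that these letters are not there; CACGTG was in 6.02% of all windows, TTANGTAA in 2.06% and GTTAAT in 6.43%. No match overlapped another.

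Libraries held 25575016 to 30110400 gene counts, so 3 counts stand at 0.0996 to 0.117 CPM, a gene's counts scaled to library size. The CPM of single genes here include TMM factors, which adjust for composition, and are used to compare livers. The summed levels of marker lists are CPM without those factors. Pcca was read at 60.3 and 58.9 CPM in WT and 34.2 and 47.4 CPM in PA (edgeR adjusted p = 0.398). The share of counts from the mitochondrial genome was 6.90 to 7.38% for WT, 13.6% for PA replicate 1 and 8.98% for PA replicate 2; 13 of 13 genes listed from it had higher values in PA, of which edgeR called 1 and DESeq2 called 7, and 9 had an unadjusted edgeR p under 0.05. Of 11 tested immediate early genes, which respond to stress and tissue handling, 10 had higher values in PA and 5 lay entirely above WT, with a median log2 fold change of 0.53; edgeR and DESeq2 called none and 3 had an unadjusted edgeR p under 0.05. The part of either list in the results was not tested. All 8 hepatocyte markers were detected and none was called (edgeR; 2 at an unadjusted p under 0.05, 1 called by DESeq2), and their summed level was 154988 and 168150 CPM in WT and 138450 and 171735 in PA. Of the other lists, 5 of 6 Kupffer cell markers and 5 of 5 red blood cell markers lay lower in both PA livers than in both WT livers, with summed levels of 438 to 526 against 213 to 303 CPM and 47.3 to 91.6 against 11.6 to 16.6 CPM. EdgeR called 2 of the red blood cell markers lower and DESeq2 called 4, and of the Kupffer cell markers edgeR called 0 (3 at an unadjusted p under 0.05) and DESeq2 called 2 lower. All 5 tested lymphocyte markers had lower values in PA, 4 of them entirely below WT, with a median log2 fold change of -1.03. Of 5 tested cholangiocyte markers, 4 had higher values in PA. Of these markers 3 lay entirely above WT and 1 entirely below, with a median log2 fold change of 0.65. Of all 14411 tested genes, 21.9% lay entirely below WT and 21.3% entirely above. Such counts for these lists and the immediate early genes are to be read against those shares. Cholangiocyte, stellate, endothelial and lymphocyte markers had 0 calls by edgeR or DESeq2, with 1 to 3 genes of each list at an unadjusted edgeR p under 0.05. The pancreas markers Cpa1, Pnlip and Ctrb1 and the intestine marker Cdx2 had 0 counts in every library. The intestine list also holds Fabp2, a fatty acid binding protein, which edgeR called lower in PA (101 and 97.0 against 44.4 and 37.5 CPM, adjusted p = 0.0487), and Lgals4, at 2.25 to 8.17 CPM with overlapping groups. The part of cell makeup in the results was not tested, and in whole liver fewer cells of a type and less RNA per cell cannot be told apart. The libraries are called biological replicates by the series, so spread includes differences between mice.

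Levels per length differed widely between the enzymes. In TPM, RSEM's length-adjusted share of the transcripts of a library, used here to rank genes, Slc27a5 was the most abundant member in WT at 603 and 656, followed by Hsd3b7 at 489 and 291. Cyp27a1 at 247 and 225 TPM and Baat at 241 and 212 TPM overlapped each other. Below them came Akr1d1 at 111 and 139 TPM and Amacr at 89.1 in both livers. The classic genes Cyp8b1, at 62.0 and 66.0 TPM, and Cyp7a1, at 44.9 and 69.9 TPM, overlapped as well. Cyp7b1 at 16.0 and 13.6 TPM and Cyp39a1 at 11.6 and 17.5 TPM were the least abundant and did not differ beyond their spread. In PA the order of the first 6 was the same, though Baat (139 and 140 TPM) now overlapped Akr1d1 (112 and 166 TPM). The lower end was rearranged. Cyp7a1 at 48.3 and 33.3 TPM overlapped Cyp39a1 at 23.1 and 50.1 TPM, Cyp39a1 overlapped Cyp8b1 at 28.4 and 6.25 TPM, and Cyp7b1 came last at 3.36 and 4.39 TPM.

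**Figure D1:**
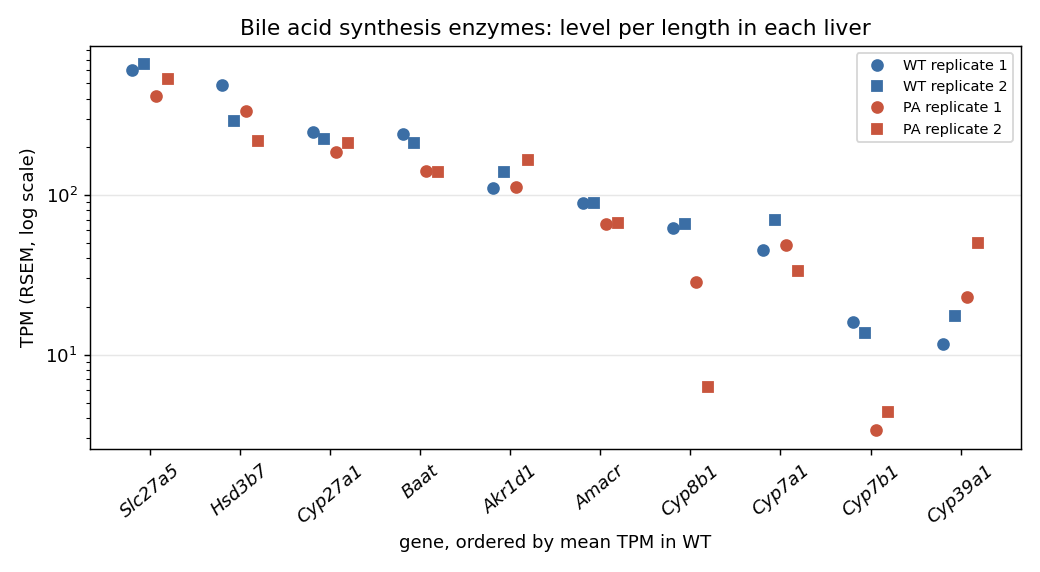
TPM on a log axis for the 10 enzymes in each of the 4 livers, WT in blue and PA in red, circles for replicate 1 and squares for replicate 2. Cyp7b1 lies at 13.6 to 16.0 TPM in WT and 3.36 to 4.39 TPM in PA, and the PA points of Cyp8b1 lie far apart at 28.4 and 6.25 TPM.

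Among the 10 genes, edgeR called 1 lower in PA and 0 higher, while 0.548% of the 14411 tested genes were called lower and 0.264% higher at an adjusted p of 0.05. At an unadjusted edgeR p under 0.05 there was 1 lower and 1 higher member, where 5.93% of all tested genes were lower and 5.88% higher; the counts at an unadjusted p given for other lists are to be read against these shares. DESeq2 also called 1 lower and 1 higher, against 1.78% and 1.29% of all tested genes. The counts of calls given for other lists are to be read against the shares called by the same test. Values lay in PA entirely below WT for 4 members (Cyp8b1, Cyp7b1, Slc27a5 and Baat) and entirely above for 2 (Cyp39a1 and Akr1d1), where 21.9% and 21.3% of all tested genes did so. With 10 genes, these counts are described and not tested. The median log2 fold change of the 10 was -0.17 and that of all tested genes was 0.0049.

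**Figure D2:**
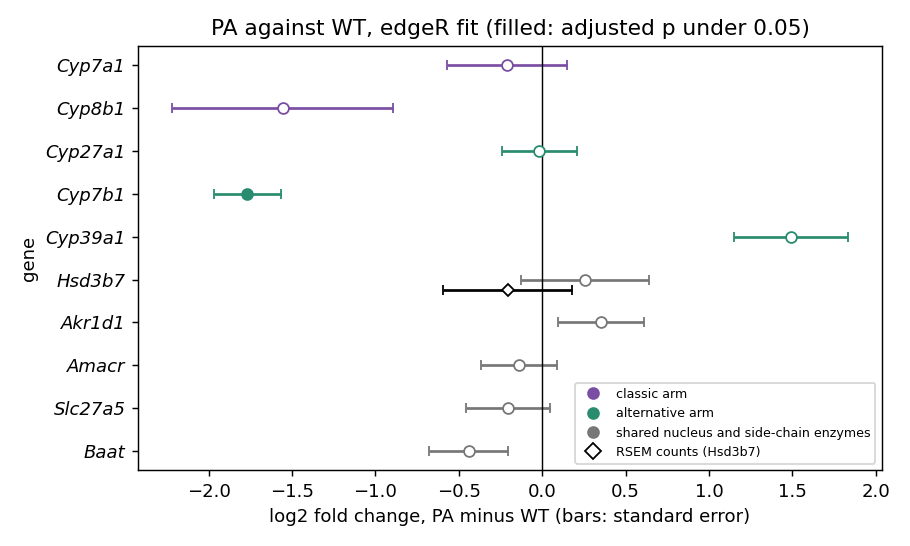
Log2 fold change of PA over WT with its standard error for each enzyme from the edgeR fit, filled where the adjusted p is under 0.05. Cyp7b1 at -1.77 is the one filled point, Cyp39a1 lies at 1.49 and Cyp8b1 at -1.56 with the widest bar, and Hsd3b7 has a second point from RSEM counts at -0.21.

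The classic route gave no call by edgeR or DESeq2. SE stands for the standard error of a log2 fold change. Cyp7a1 was read at 151 and 248 CPM for the WT mice, and 222 and 124 CPM for the PA mice. The groups overlapped, and each held a high and a low mouse, with a ratio of high to low of 1.64 in WT and 1.80 in PA. The log2 fold change of Cyp7a1 was -0.21 (SE 0.36; edgeR adjusted p = 0.880), and it ran from -0.69 without PA replicate 1 to 0.20 without WT replicate 2.

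Cyp8b1, which sets how much cholic acid is made, stood at 93.9 and 107 CPM for WT. PA replicate 1 had 58.0 CPM and PA replicate 2 had 10.3 CPM. Both PA livers were below both WT livers, but the PA livers differed 5.63-fold from each other and the WT livers 1.14-fold. The mean fell short of a call, with a log2 fold change of -1.56 (SE 0.66, edgeR adjusted p = 0.426; DESeq2 adjusted p = 0.825). Without PA replicate 1 the value was -3.28 (edgeR adjusted p = 0.000598), and without PA replicate 2 it was -0.79 (0.0972). The size of the difference thus depended on which PA mouse was kept. A fit without 1 library has a single mouse in a group and takes its spread from the other group.

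In the alternative route, Cyp27a1 was the steadiest member. It was read at 336 and 333 CPM in WT and at 343 and 318 CPM in PA, with a log2 fold change of -0.016 (SE 0.22, edgeR adjusted p = 0.988). The next enzyme of that route, the oxysterol hydroxylase Cyp7b1, was at 28.3 and 25.5 CPM in WT and at 7.69 and 8.11 CPM in PA. Its groups were far apart and the 2 mice of each group lay close together. Cyp7b1 fell 3.40-fold (log2 fold change -1.77 with SE 0.20; edgeR adjusted p = 0.0146), from 26.9 ± 1.96 to 7.90 ± 0.294 CPM (SD, n = 2 each). It was called in all 11 alternative fits, with log2 fold changes from -1.83 to -1.70, including the fit without mitochondrially encoded genes.

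Cyp39a1, which 7-alpha-hydroxylates another oxysterol, had values on the other side. It was at 22.3 and 36.3 CPM in WT and at 60.5 and 104 CPM in PA, so both PA livers were above both WT livers, and the mice within each group differed by 1.62-fold and 1.72-fold. Its log2 fold change of 1.49 (SE 0.34) was not called by edgeR (adjusted p = 0.135) and was called by DESeq2 (adjusted p = 0.00223). By edgeR it was also called without WT replicate 2 (1.89, adjusted p = 0.0405) and without PA replicate 1 (1.84, adjusted p = 0.0174), and not without WT replicate 1 (1.18, adjusted p = 0.439) or PA replicate 2 (1.04, adjusted p = 0.106). The Cyp7b1 and Cyp39a1 loci each hold an annotated small nuclear RNA gene on the same strand, Gm23686 and Gm25783, and both had 0 counts in every library. Reads on the sense strand of the library, the strand that these libraries hardly use, made up at most 0.154% of the stranded counts of Cyp7b1 and 0.0322% of those of Cyp39a1.

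The routes were set against each other within each library, which takes out depth. The log2 ratio of Cyp7a1 to Cyp7b1 was 2.42 and 3.28 in WT and 4.85 and 3.93 in PA. Both PA livers had a higher ratio than both WT livers, and the mean difference of 1.54 corresponds to a 2.91-fold change, with no test made of it. On its own, Cyp7a1 had a log2 fold change of -0.21 with overlapping groups, and Cyp7b1 one of -1.77. The higher ratio thus came with lower Cyp7b1 and not with higher Cyp7a1. With Cyp8b1 over Cyp7b1 the difference was -0.27 and with Cyp7a1 over Cyp27a1 it was -0.21, both smaller than the spread within PA. With Cyp8b1 over Cyp27a1 it was -2.02, from -1.84 and -1.64 in WT to -2.56 and -4.95 in PA. The sign of the comparison of the routes therefore depended on which genes stood for them. No ratio was taken over Cyp39a1, the alternative gene for which both PA livers lay above both WT livers.

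The make-up of the 7-alpha-hydroxylase transcripts gives the same data as shares; this summary was chosen after the values were seen. Of the TPM summed over Cyp7a1, Cyp7b1 and Cyp39a1, Cyp7b1 held 22.1 and 13.5% in WT and 4.49 and 5.0% in PA. Cyp39a1 held 16.0 and 17.3% in WT and stood at 30.9 and 57.1% in the PA pair. Cyp7a1 held most of the sum in 3 livers (61.9, 69.2 and 64.6%) and 37.9% in PA replicate 2. The sum itself was 72.5 and 101 TPM in WT and 74.8 and 87.9 TPM in PA, so the totals overlapped while the shares of Cyp7b1 and Cyp39a1 did not. TPM and CPM can differ between the groups. Cyp27a1 had a mean of 334 CPM in WT and 331 CPM in PA, but 236 and 197 TPM. The shares are within a library, and the totals are given without a comparison in CPM.

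**Figure D3:**
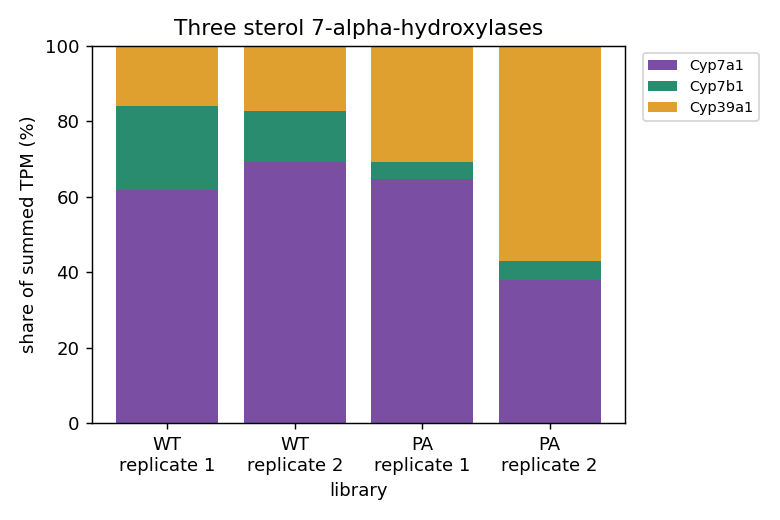
Share of the TPM summed over Cyp7a1, Cyp7b1 and Cyp39a1 held by each gene, in percent, one bar per liver. Cyp7b1 takes 13.5 to 22.1% in WT and 4.49 to 5.0% in PA, and Cyp39a1 takes the largest share, 57.1%, in PA replicate 2.

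Of the 5 shared enzymes, none was called by edgeR or DESeq2 or had an unadjusted edgeR p under 0.05. Slc27a5, the bile acid CoA ligase and the most abundant member, was at 1087 and 1252 CPM in WT and 1001 and 1030 CPM in PA (log2 fold change -0.20 with SE 0.25; edgeR adjusted p = 0.811). Baat, the conjugating enzyme, was at 351 and 334 CPM in WT and 279 and 225 CPM in PA (-0.44, SE 0.24, edgeR adjusted p = 0.537). For both, the PA livers lay below the WT livers by less than the test could tell from the spread. Akr1d1, the reductase of the ring, was at 250 and 335 CPM in WT and 341 and 405 CPM in PA, with PA replicate 1 barely above WT replicate 2 (0.35, SE 0.26, edgeR adjusted p = 0.660). A processed pseudogene, Gm7463, lies on the same strand within Akr1d1 and had 68 to 189 counts. Amacr, which turns the side chain to the form that peroxisomes shorten, was at 116 and 130 CPM in WT and 126 and 96.8 CPM in PA, with overlapping groups (-0.14, SE 0.23, edgeR adjusted p = 0.874).

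Hsd3b7 shows how far the counting can decide a level. STAR gave it 188 and 94 counts in WT and 197 and 121 in PA on the stranded column, and 0 in every library without regard to strand. RSEM gave the same gene 17551 and 9333 expected counts in WT and 13258 and 7977 in PA, 80.2 times the stranded STAR total over the 4 libraries, whereas the other 9 members had 0.838 to 0.903 times. The annotated gene Gm49388 (chr7:127785608-127803802, plus strand) covers the whole of Hsd3b7, and 9430064I24Rik lies on the other strand, and STAR does not assign reads that fall in more than 1 gene. RSEM gave Gm49388 itself 0 expected counts in 3 libraries and 11.7 in PA replicate 1. On RSEM counts Hsd3b7 was at 567 and 369 CPM in WT and 540 and 272 CPM in PA, with overlapping groups (log2 fold change -0.21 with SE 0.39; edgeR adjusted p = 0.893). On STAR counts, which see a small part of the gene, the value was 0.26 (SE 0.38, edgeR adjusted p = 0.855). The sign differs between the counts, and neither passed the test.

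Among 13 tested genes of the same pathway outside the 10, edgeR called none; 3 had an unadjusted p under 0.05 and DESeq2 called 1. Their median log2 fold change was 0.010, with 7 higher and 6 lower values. Acox2, the peroxisomal oxidase that shortens the bile acid side chain, was at 140 and 117 CPM in WT and 273 and 204 CPM in PA (log2 fold change 0.89, edgeR adjusted p = 0.217; DESeq2 adjusted p = 0.0415). Cyp46a1, which makes the oxysterol that Cyp39a1 uses, was low, at 1.01 and 1.96 CPM in WT and 0.275 and 0.505 CPM in PA (-1.89, edgeR adjusted p = 0.201). Fdxr, of the electron chain that feeds Cyp27a1, was at 7.47 and 7.30 CPM in WT and 11.9 and 10.1 CPM in PA (0.57, edgeR adjusted p = 0.352). Ch25h, which makes another oxysterol, did not pass the filter.

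Of 12 tested genes on the list of bile acid transporters, edgeR and DESeq2 each called 2 higher and 1 lower. Over all tested genes, edgeR called 0.264% higher and 0.548% lower, and DESeq2 1.29% and 1.78%. Higher were Slc51b, part of a basolateral exporter (1.73 and 1.81 against 8.68 and 9.12 CPM, edgeR adjusted p = 0.0103), and the export pump Abcc4 (1.53 and 2.24 against 7.89 and 12.9 CPM, edgeR adjusted p = 0.0313). Lower was the uptake carrier Slco1a1 (350 and 218 against 0.353 and 0.774 CPM, edgeR adjusted p = 0.000535). Slc10a2, a bile acid transporter not on the list, was picked after its values were seen. EdgeR called it lower in PA as well (42.5 and 25.8 against 0.746 and 3.60 CPM, adjusted p = 0.0474). Slc51a, the partner of Slc51b, had 0 counts in every library.

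Of 21 regulators of the pathway, edgeR and DESeq2 called none, and 4 had an unadjusted edgeR p under 0.05. The median log2 fold change was 0.049. The bile acid receptor FXR, Nr1h4, and the receptor of intestinal FGF15, Fgfr4, are given although the rule for naming genes does not name them. Nr1h4 was at 134 and 155 CPM in WT and 116 and 142 CPM in PA. Fgfr4 was at 20.9 and 16.1 CPM in WT and 11.8 and 13.7 CPM in PA (log2 fold change -0.54, edgeR adjusted p = 0.402). The smallest p-values belonged to Cebpb (9.68 and 10.1 against 24.7 and 14.8 CPM, edgeR adjusted p = 0.209), Ppargc1a (6.65 and 11.1 against 22.1 and 14.6 CPM, edgeR adjusted p = 0.251) and Cux2, a factor known to be higher in female liver (22.4 and 17.1 against 0.471 and 6.09 CPM, edgeR adjusted p = 0.277). Nr0b2, or SHP, the repressor that FXR induces and that acts on Cyp7a1, was picked after its values were seen. It was at 34.7 and 14.3 CPM in WT and 16.4 and 26.6 CPM in PA, so that the livers with more Cyp7a1, WT replicate 2 and PA replicate 1, had less Nr0b2. With 4 livers no correlation is given.

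Clock and feeding genes moved between mice of one group, and the labels give no hour of collection. Of 15 clock genes, edgeR and DESeq2 called none, with 2 at an unadjusted edgeR p under 0.05, and the values within a group were wide. By rule these were Per1 (7.34 and 9.54 against 13.1 and 22.8 CPM), Nr1d2 (46.5 and 107.6 against 44.5 and 31.9 CPM) and Cry1 (7.69 and 4.91 against 6.28 and 20.8 CPM). Dbp, Arntl, Per3 and Nr1d1 were picked after the values of these genes and of the enzymes were seen. Dbp was at 4.86 CPM in WT replicate 1 and 73.6 CPM in WT replicate 2, and at 9.78 and 13.1 CPM in PA. Arntl was at 15.9 and 1.06 CPM in WT and 10.3 and 9.19 CPM in PA. The WT livers thus differed from each other in these 2 genes more than either differed from the PA livers. Per3 was at 5.31 and 34.8 CPM in WT and 6.52 and 27.3 CPM in PA, low in both first replicates. Nr1d1, or REV-ERBA, had 29.7, 27.3 and 23.8 CPM in WT and PA replicate 1, against 5.12 CPM in PA replicate 2, the liver that was also lowest for Cyp8b1 and highest for Cyp39a1.

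**Figure D4:**
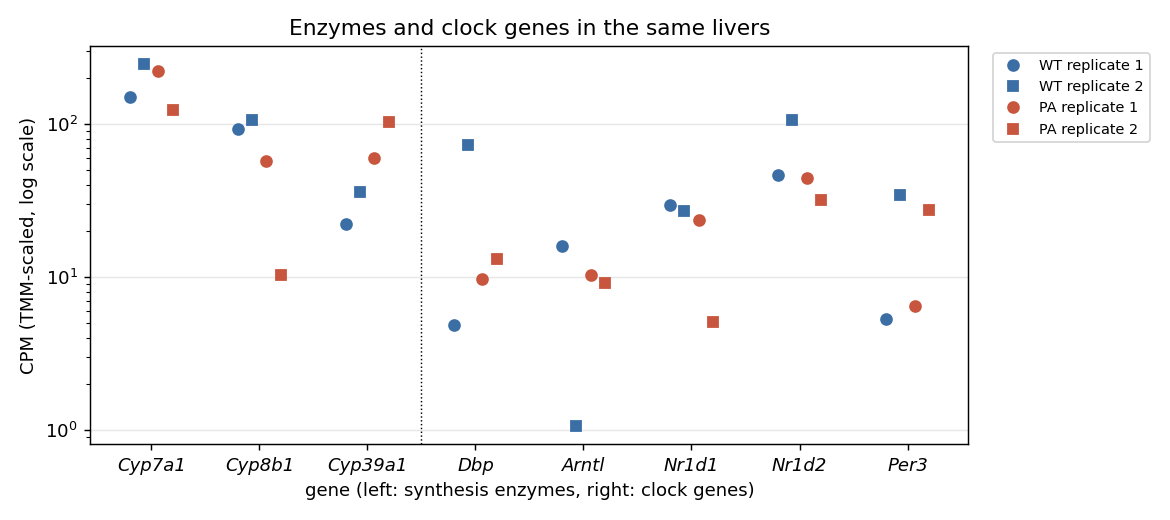
CPM on a log axis for Cyp7a1, Cyp8b1 and Cyp39a1 beside 5 clock genes in each liver, with WT in blue, PA in red, circles for replicate 1 and squares for replicate 2. Dbp and Arntl separate the WT livers from each other (4.86 against 73.6 and 15.9 against 1.06 CPM), and PA replicate 2 is lowest for both Cyp8b1 and Nr1d1.

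Feeding genes differed between the PA livers too. Of 10, edgeR and DESeq2 called none and 2 had an unadjusted edgeR p under 0.05. G6pc, the glucose-6-phosphatase that rises in fasting, was at 536, 260 and 311 CPM in the WT mice and PA replicate 1, against 70.8 CPM in PA replicate 2. Pnpla3, which lipogenic feeding induces, was at 7.50 and 4.67 CPM in WT and 0.236 and 2.66 CPM in PA. The part of collection time and feeding in the values of Cyp7a1, Cyp8b1 and Cyp39a1 was not tested.

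Zonation markers were read because bile acid synthesis is known to be strongest around the central vein. Of 10 pericentral genes, edgeR and DESeq2 called none, 1 had an unadjusted edgeR p under 0.05 and the median log2 fold change was 0.034. That gene was the xenobiotic hydroxylase Cyp1a2, at 177 and 234 CPM in WT and 303 and 459 CPM in PA. The rule also names Slc1a2, which lay the other way, at 101 and 140 CPM in WT and 70.5 and 93.6 CPM in PA. It names Axin2 too, at 2.41 and 3.02 CPM in WT and 4.91 and 3.37 CPM in PA. Of 10 periportal genes, edgeR called none, 4 had an unadjusted p under 0.05, DESeq2 called 3 higher and 1 lower, and the median was 0.56. Hsd17b13, a lipid droplet protein, was at 98.9 and 226 CPM in WT and 430 and 394 CPM in PA (edgeR adjusted p = 0.228, DESeq2 adjusted p = 0.0143). Cps1, which opens the urea cycle, was at 2597 and 2547 CPM in WT and 4134 and 6703 CPM in PA (edgeR adjusted p = 0.259, DESeq2 adjusted p = 0.0157). Pigr, a receptor that carries immunoglobulin into bile, lay the other way, at 1398 and 1409 CPM in WT and 624 and 897 CPM in PA (edgeR adjusted p = 0.277; DESeq2 adjusted p = 0.0492). The part of zonation in the values of the 10 enzymes was not tested.

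The genes whose pattern over the 4 livers was most like that of Cyp7b1 were found by the smallest root mean square difference in centred log2 CPM, among 11229 protein-coding genes with a mean of at least 1 CPM. They were Npr2, a natriuretic peptide receptor (difference 0.11), Phf11b (0.13), the serine protease Htra1 (0.13), the condensin subunit Smc2 (0.14) and Setd4 (0.16). Npr2 was at 30.3 and 27.9 CPM in WT and 7.69 and 10.1 CPM in PA, nearly the levels of Cyp7b1. Since the match is over 4 livers in 2 groups, it mostly reflects the size of the difference between the groups.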

How the data were processed

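Liver polyA RNA of 2 WT and 2 PA mice was compared; groups and replicate numbers come from the sample titles. The authors deposited raw gene counts from STAR 2.7.6a, and RSEM 1.3.3 expected counts, TPM and FPKM, per the file headers and the submitters' processing notes, which name GRCm38; the annotation release is not given in the sources used here. TPM and FPKM were normalised within a library by the authors; FPKM and the deposited gene lengths, another output of RSEM, were not used. The opposite-strand STAR column held 97.0 to 97.1% of stranded counts and was the main count. Summary lines that name no gene (28.1 to 34.3% of reads) were left out. Of 55487 identifiers, 55141 matched a symbol; positions come from a GENCODE annotation of GRCm38.

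All genes were fitted with edgeR 4.0.16 in R 4.3.3 (quasi-likelihood test, TMM, filterByExpr, genotype only, prior count 0.125), with Benjamini-Hochberg adjustment over 14411 genes at 0.05. The standard error is the log2 fold change over the square root of F. Alternatives were DESeq2 1.42.0, RLE size factors, no filter, rounded RSEM counts, unstranded counts, a replicate block, removal of mitochondrially encoded genes and leaving out each library. The fit was tested on simulated data. Replicate pairs differed beyond counting noise (chi-square per degree of freedom 46.3 in WT and 135 in PA). Floors cover counting error only. The named genes are the 10 members, Pcca, and from each other pathway list the called genes, or up to 3 by smallest p where fewer are called. The members and lists were chosen with earlier results of these data known. A protein comparison was planned and not made. One gene that this rule names is not reported here.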

Additional observations from a re-analysis of the deposited data

How the results depend on the processing

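The number of genes called, 117, was 442 with DESeq2, 902 with no filter on low counts, 318 with the replicate block and 155 to 500 when 1 library was left out; the cause was not tested. The replicate numbers are not stated to pair mice, and the deviations of same-numbered libraries had a correlation of -0.089 across genes. With the replicate block, edgeR called Cyp39a1 (log2 fold change 1.48, adjusted p = 0.00601) and Cyp7b1 (-1.77, 0.00259), and Cyp8b1 had -2.01 (0.0653). With no filter, Cyp8b1 (-1.57, edgeR adjusted p = 1.68e-07) and Cyp39a1 (1.48, 7.87e-07) were called. In that fit Cyp8b1 had an SE of 0.26 and Cyp27a1 one of 0.28, against 0.66 and 0.22 in the main fit. The p-values of the fit with no filter thus do not follow the spread of each gene between mice. The counts of calls that follow include that fit. Cyp7b1 was called in all 11 alternatives, Cyp39a1 in 5 and Cyp8b1 in 2, and the other 7 members in none.

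Signs changed for 4 members that were not called. RSEM counts gave Hsd3b7 -0.21 and Cyp27a1 0.00099. Leaving out 1 library gave Cyp7a1 -0.69 to 0.20, Cyp27a1 -0.065 to 0.034, Hsd3b7 -0.27 to 0.66 and Amacr -0.34 to 0.040. Hsd3b7 had no count to fit in the unstranded column. The difference in the classic to alternative ratio, 1.54, was 1.08 to 2.00 without 1 library, and -0.27 (Cyp8b1 over Cyp7b1), -0.21 (Cyp7a1 over Cyp27a1) and -2.02 (Cyp8b1 over Cyp27a1) with other genes. With 2 mice a group, small differences are out of reach, and a missing call does not show equal levels.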
